A study of Mus musculus with 217 samples.

Results

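Cav1, Cav2, Cavin1, Cavin2, Cavin3, Ehd2, Ehd4, Pacsin2 and Plvap encode the coat, the neck and the diaphragm of endothelial caveolae. These 9 genes were taken by name from the 52550 genes counted in RiboTag EC libraries of mouse brain, lung and heart, and all 9 passed the filter on low counts in every tissue. Caveolae are flask-shaped pits of the plasma membrane: caveolins build them from the inner side, cavins wrap them as a peripheral coat, and the ATPase EHD2 holds their neck at the cell surface. Endothelial caveolae carry plasma proteins across the vessel wall and hold the nitric oxide synthase of the endothelium in an inactive state. Capillaries of heart and lung are known to be rich in them, whereas the endothelium of the blood-brain barrier keeps them few, and PLVAP, which spans the opening of caveolae and fenestrae, is largely lost from brain vessels once the barrier has formed.

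All mice were adult C57BL/6J mice of genotype Cdh5CreERT2/+; Rpl22HA/+ that had been gavaged with 5 mg of tamoxifen on 4 occasions when 4 to 6 weeks old. The Cre is driven by the promoter of Cdh5 (VE-cadherin), so that ribosomes carry the HA tag in cells in which this promoter was active, and the RNA sequenced was that bound to an anti-HA antibody after perfusion of the animal. Control mice (0 hr) were compared with mice killed 6, 24, 48, 72 or 168 hr after an intraperitoneal injection of 10 mg per kg lipopolysaccharide (LPS), the endotoxin of Gram-negative bacteria. The controls had received PBS instead, and carried the same alleles and tamoxifen. In the order of these 6 times, the libraries used here numbered 5, 5, 4, 6, 4 and 4 in brain, 4, 4, 2, 6, 4 and 4 in lung and 5, 5, 4, 6, 4 and 4 in heart.

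These 80 libraries held 284457 to 43417945 counts on genes. The share of reads on genes was 53.4 to 70.0% in brain and 43.7 to 68.9% in heart but 3.40 to 61.0% in lung, and 18 further libraries with 1.73 to 2.75% were left out. The pan-endothelial markers, a list of 15 genes such as Pecam1 and Cdh5, were detected in every tissue. Their summed level at 0 hr was 12078 to 14377 CPM (counts per 1000000 counts on genes, scaled by TMM) in heart, 9741 to 17025 CPM in lung and 1703 to 3692 CPM in brain, where neuronal markers summed to 1039.9 to 4290 CPM and glial markers to 678 to 5274 CPM. In these bulk precipitates fewer cells of a type and less RNA per cell cannot be told apart.

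The deposited count files carry 4 naming patterns, used here as library series and as a technical covariate. The fourth series holds 20 of the libraries used and 0 at 0 hr, so that its offset is set by times after 6 hr alone. Changes from 0 hr at 24, 48, 72 and 168 hr lean on this offset, which no control of that series checks. At 168 hr the remaining libraries are of the first series. Among the libraries labelled 6 hr, those of the first series (brain replicate 6, heart replicate 5 and lung replicate 4) stood apart in Saa3. Saa3 is an acute-phase gene induced by LPS, and in it those of brain and heart lay near their controls. Saa3 stood at 1.08 CPM in brain replicate 6 and at 1328 to 1523 CPM in the other 4 brain libraries at 6 hr. It stood at 0.957 CPM in heart replicate 5 and at 764 to 1170 CPM in the other 4 heart libraries. Other LPS genes, picked after seeing the data, were mixed. Lcn2 was 289 CPM in brain replicate 6 (controls 5.41 to 37.1) and 46.7 CPM in heart replicate 5 (controls 7.52 to 19.7). Both lay far below the other 6 hr libraries. Serpina3n was 40.3 CPM in brain replicate 6 (controls 3.14 to 16.8). In heart replicate 5 it was 58.7 CPM (controls 4.66 to 8.64, other 6 hr libraries 17.9 to 90.9). Icam1 lay within the controls in both. Selp, Sele and Ch25h lay near or within the controls in both, and far below the other 6 hr libraries. Selp was 0.694 CPM in brain replicate 6 (controls 0.0898 to 0.774, other 6 hr libraries 63.1 to 134). In heart replicate 5 it was 6.50 CPM (controls 2.98 to 4.35, others 454 to 932). Ch25h was 16.3 CPM in brain replicate 6 (controls 2.79 to 12.5) and 5.61 CPM in heart replicate 5 (controls 5.97 to 9.81). In lung replicate 4 Saa3 stood at 116 CPM, from 4 reads, against 4754 to 19915 CPM in the other 3 lung libraries at 6 hr and 2.89 to 97.1 CPM in lung controls. This library held the fewest counts of all, 284457, so that 1 read was worth 28.9 CPM. The calls at 6 hr are given with and without these libraries. Lung 0 hr replicate 4 had 56.2% of its reads on genes against 18.8 to 28.6% in the other 3 lung controls, and results that rest on it are given in the same way.

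In the unstimulated brain, caveola genes stood below their level in the heart on the scale of all genes. Cav1, the principal coat protein of endothelial caveolae, measured 379.9, 524, 114, 159 and 138 CPM in the brain controls. It measured 279, 210.3, 289 and 3243 CPM in lung and 3182, 2607, 3798, 4756 and 3759 CPM in heart. All 5 heart libraries lay above all 5 brain libraries, and the single high lung library lay within the heart range while the other 3 lay within the brain range. The difference of brain from heart was -4.31 ± 0.68 on the log2 scale (SE, edgeR adjusted p = 6.56e-05). Brain was called lower than lung by -1.64 ± 0.63 (edgeR adjusted p = 0.033), but without lung replicate 4 the difference was -0.26 (adjusted p = 0.597), and the call was also lost without brain replicate 1, 3, 4 or 5 (-1.58 to -1.67).

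Cav2, which joins Cav1 in the coat and needs it to reach the surface, followed the same order between brain and heart. It measured 102 to 382 CPM in brain with a median of 144, 55.1 to 875 CPM in lung and 984 to 1513 CPM in heart with a median of 1058. Brain and heart did not overlap (-2.89 ± 0.59, edgeR adjusted p = 0.000703). Brain and lung overlapped (-0.26 ± 0.58, adjusted p = 0.714, 95% interval -1.40 to 0.89), and without lung replicate 4 brain was the higher of the pair by 1.06 (adjusted p = 0.0348). With mice, read from file names, as a block, brain minus lung was 1.19 for Cav2 (edgeR adjusted p = 0.033) and -0.20 for Cav1 (adjusted p = 0.721). In GRCm38, Cav2 (chr6:17281185-17289115) and Cav1 (chr6:17306335-17341452) lie head to tail on the plus strand of chromosome 6, with 17219 bases between the end of Cav2 and the start of Cav1.

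Because Cav1, Cav2 and Cavin2 had the largest falls at 6 hr in brain and heart once the libraries low in Saa3 were set aside, the 250 bases before each start site are shown, from RefSeq on GRCm38.p6, plus strand, at chr6:17306085-17306334, chr6:17280935-17281184 and chr1:51288876-51289125. Capitals mark a GC box (GGGCGG, either strand) or a CCAAT box (CCAAT, either strand).
Cav1: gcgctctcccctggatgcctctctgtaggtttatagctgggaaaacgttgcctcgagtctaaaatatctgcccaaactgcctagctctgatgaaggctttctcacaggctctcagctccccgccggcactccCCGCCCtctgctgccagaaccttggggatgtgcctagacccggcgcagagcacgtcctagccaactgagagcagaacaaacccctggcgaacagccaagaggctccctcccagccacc
Cav2: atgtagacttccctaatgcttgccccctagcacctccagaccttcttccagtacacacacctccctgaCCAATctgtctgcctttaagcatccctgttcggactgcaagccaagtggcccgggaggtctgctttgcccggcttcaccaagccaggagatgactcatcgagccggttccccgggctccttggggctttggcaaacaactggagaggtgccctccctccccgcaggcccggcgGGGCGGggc
Cavin2: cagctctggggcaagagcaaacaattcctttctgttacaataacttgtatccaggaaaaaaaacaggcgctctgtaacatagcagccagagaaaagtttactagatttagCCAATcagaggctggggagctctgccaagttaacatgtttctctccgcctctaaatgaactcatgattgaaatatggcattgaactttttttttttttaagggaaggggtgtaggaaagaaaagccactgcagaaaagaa
The Cav1 window held a GC box on the minus strand at -118 to -113, counted back from the start site, and the Cav2 window held a GC box at -9 to -4 and a CCAAT box at -182 to -178. Cavin2 held a CCAAT box at -140 to -136 and no GC box, with 40.4% GC against 59.6% for Cav1 and 62.0% for Cav2. Over 27025 promoters of this length 33.0% held the GC box and 34.5% the CCAAT box, and 6 of the 7 members with a promoter in the table held each. The ETS core CCGGAA was in none of the 7 members and in 12.3% of all promoters, and the kappaB consensus in none of the 7 and in 7.03%.

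Cavin1, which every caveola needs for its coat, was the most abundant member per length in brain and lung. Per kb of exon it stood at 206 ± 80.4 CPM in brain (SD, n = 5), 3319 ± 1920.0 CPM in lung (n = 4) and 989 ± 149 CPM in heart (n = 5), where Cav1 stood at 1051 ± 232 CPM and did not differ from it beyond this spread. In libraries, brain measured 1011, 1068, 536, 663 and 416 CPM, lung 8909.9, 21286, 12244 and 5181 CPM and heart 3729, 3201, 4413, 3177 and 3226 CPM. The 3 tissues did not overlap. Lung exceeded heart by 1.78 ± 0.44 on the log2 scale (edgeR adjusted p = 0.00285), and brain lay below lung by -4.09 ± 0.48 (adjusted p = 4.04e-06) and below heart by -2.31 ± 0.43 (adjusted p = 0.000322).

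Cavin2, the cavin that sets the shape of the coat in some endothelia, ran from brain over lung to heart. It measured 67.1 to 311 CPM in brain (median 91.9), 393, 589, 720.2 and 734 CPM in lung and 1573 to 2354 CPM in heart (median 2161). No library of one tissue reached into the next. The log2 differences were -2.12 ± 0.42 for brain against lung (edgeR adjusted p = 0.000436), -3.90 ± 0.43 for brain against heart (adjusted p = 1.9e-06) and -1.78 ± 0.42 for lung against heart (adjusted p = 0.00212). Cavin3, a cavin that also binds signaling kinases, was the one member called lower in lung than in brain: it measured 15.7, 18.2, 15.8 and 129 CPM there against 56.7 to 107 CPM in brain and 153 to 206 CPM in heart. Brain exceeded lung by 1.20 ± 0.50 (edgeR adjusted p = 0.0458), or by 2.30 without lung replicate 4. This call was lost without any 1 of 10 of the 14 libraries (all but lung replicate 4 and heart replicates 1, 2 and 3, at 0.90 to 1.30), and the call of brain below heart (-1.14 ± 0.44, adjusted p = 0.0396) without any 1 of 7 (brain replicates 1, 2, 3 and 5 and heart replicates 3, 4 and 5, at -0.95 to -1.19). The exons of Cavin3 (chr7:105480083-105482300) overlap the antisense gene Gm45667 over 374 bases, 22.5% of their length, and the strand setting of the counting is not given in the sources used here.

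Among the neck proteins, Ehd2 ran with the caveolins and Ehd4 did not. Ehd2 measured 213, 313, 127, 169 and 113 CPM in brain, 304, 372, 484 and 969 CPM in lung and 1564, 1305, 2099, 1552 and 1228 CPM in heart. Heart stood apart from both other tissues, and lung and brain touched (304 and 313 CPM). Ehd4, a relative of EHD2 that assembles with it at the neck, measured 87.3, 114, 44.4, 57.4 and 37.5 CPM in brain, 1532, 2114, 2959.6 and 3517 CPM in lung and 188, 210.4, 259, 186 and 223 CPM in heart. Every lung library was above every heart library, and every heart library above every brain library. Lung exceeded heart by 3.54 ± 0.35 (edgeR adjusted p = 1.8e-06) and brain by 5.31: brain minus lung was -5.31 ± 0.38 (adjusted p = 3.39e-08).

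Pacsin2, an F-BAR protein that bends the membrane of the neck, was low in all 3 tissues, at 40.8 to 70.0 CPM in brain, 41.6 to 232 CPM in lung and 121 to 142 CPM in heart. It differed between brain and heart (-1.33 ± 0.33, edgeR adjusted p = 0.00297). Against lung it was -0.67 ± 0.35 in brain (adjusted p = 0.103, called at -0.86 without lung replicate 1 and at -0.91 without lung replicate 2). Lung minus heart was -0.65 ± 0.36 (adjusted p = 0.127) and -1.29 without lung replicate 4 (adjusted p = 3.93e-05) or -1.36 with mice as a block (adjusted p = 0.000126). Plvap, the diaphragm protein, measured 24.1, 13.6, 20.1, 36.5 and 11.5 CPM in brain, 341, 777, 427 and 1493 CPM in lung and 91.6, 98.7, 200.1, 135 and 107 CPM in heart. The 3 tissues again did not overlap. Brain lay below lung by -5.25 ± 0.49 (edgeR adjusted p = 3.87e-07) and below heart by -2.63 ± 0.42 (adjusted p = 8.09e-05), and lung above heart by 2.62 ± 0.44 (adjusted p = 0.00016). Without lung replicate 4 the lung values became -4.63 and 2.01.

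**Figure D1:**
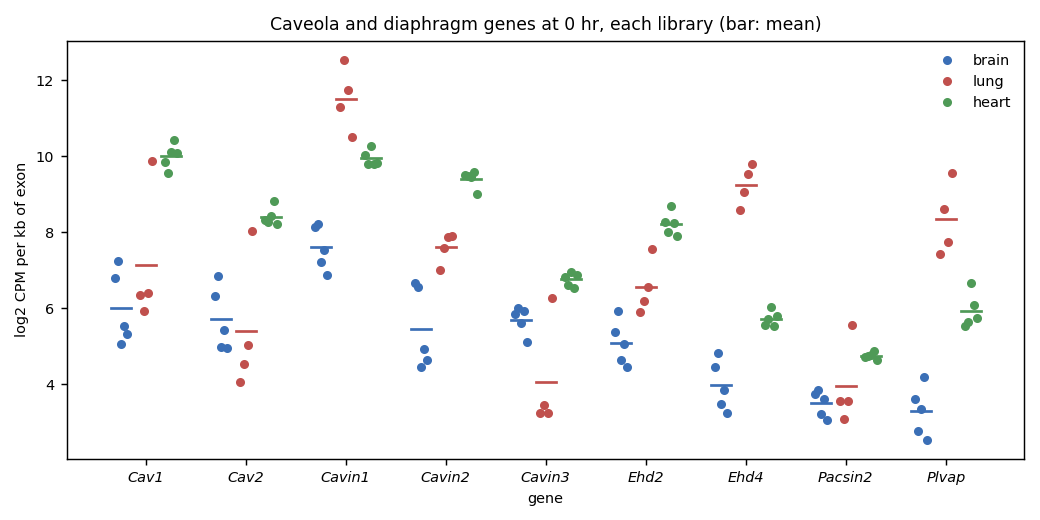
Level at 0 hr in every library of brain (blue), lung (red) and heart (green), as log2 CPM per kb of exon, with a bar at the mean of each tissue. Heart is above brain for all 9 genes on this scale, lung is above heart for Cavin1, Ehd4 and Plvap, and 1 lung library lies above the other 3 for Cav1, Cav2, Cavin3 and Pacsin2.

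In counts, brain was called lower than heart for 9 of the 9 genes, where 54.8% of all 17730 genes tested were called and 22.8% in this direction. Brain differed from lung for 7 of 9 against 64.3% of all genes, with 6 members lower (26.4% of all genes) and Cavin3 higher (37.9%). Lung differed from heart for 8 of 9 against 61.1%, with 3 members higher (29.9%) and 5 lower (31.2%). The pan-endothelial list moved with the members. All 15 of its 15 genes were called lower in brain than in heart (median log2 difference -2.61, members -2.63). Against lung 11 of 15 were lower in brain and 0 higher (median -1.35, members -1.64). In lung against heart 2 were higher and 7 lower (median -1.09, members -1.64). Other lists differed too. In lung against heart 5 of 5 tested type I alveolar markers (median 9.15) and 4 of 5 adipocyte markers (3.19) were higher. Smooth muscle and pericyte markers were 7 of 10 higher and 1 lower there (2.30), and cardiomyocyte markers 8 of 8 lower (-5.92). In brain against heart 8 of 8 cardiomyocyte markers (-9.51) and 4 of 5 adipocyte markers (-3.90) were lower. Smooth muscle and pericyte markers were 5 of 10 higher there (2.06). The part of these cells was not tested. The order of the tissues depends on the scale. When libraries were scaled to the pan-endothelial list in place of all genes, the members moved up in brain by a median of 2.54 on the log2 scale against lung and 2.54 against heart, and lung against heart hardly moved. On that scale brain was above heart for Cavin1 (0.13), Cavin3 (1.42), Ehd4 (0.69) and Pacsin2 (1.21), and above lung for Cav1 (0.90), Cav2 (2.31), Cavin2 (0.33), Ehd2 (0.94) and Pacsin2 (1.88). Brain remained below heart for Cav1, Cav2, Cavin2, Ehd2 and Plvap, and below lung for Cavin1, Ehd4 and Plvap.

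At 6 hr post-LPS, Cav1, Cav2, Cavin1, Cavin2 and Ehd2 RNA had fallen in brain ECs on the scale of all genes. Cav1 measured 14.2, 21.2, 16.6 and 23.8 CPM in brain replicates 1 to 4 and 343 CPM in replicate 6, against 114 to 524 CPM at 0 hr. The 4 libraries lay below every control, and replicate 6, the library low in Saa3, lay among the controls. The log2 fold change was -1.93 ± 0.56 (edgeR adjusted p = 0.0373) with replicate 6 and -3.40 ± 0.47 without it (adjusted p = 9.15e-06). The first of these calls was lost without 0 hr replicate 1, 2, 4 or 5 or 6 hr replicate 1, 2, 3 or 4 (-1.69 to -1.96).

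The partners of Cav1 in the brain coat moved with it. Cav2 measured 21.9, 30.0, 26.5, 37.8 and 277 CPM at 6 hr (-1.47 ± 0.37, edgeR adjusted p = 0.0144, or -2.33 ± 0.30 without replicate 6, and no longer called, at -1.32, without replicate 3). Cavin1 measured 193, 175, 151, 289.8 and 896 CPM against 416 to 1068 CPM in controls (-1.13 ± 0.29, edgeR adjusted p = 0.0171, or -1.68 ± 0.26 without replicate 6). Its call was lost without 0 hr replicate 4 or 6 hr replicate 1, 2 or 3 (-0.96 to -1.05). In both genes the replicates 1 to 4 lay below every control and replicate 6 among them.

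Cavin2 measured 24.6, 21.4, 17.5, 41.4 and 267 CPM at 6 hr (-1.20 ± 0.36, edgeR adjusted p = 0.0458, or -1.87 ± 0.34 without replicate 6). This was the call with the least margin: any 1 of 14 libraries ended it (0 hr replicates 1 to 5, 6 hr replicates 1 to 4, 48 hr replicate 1, 72 hr replicates 1 and 3 and 168 hr replicates 4 and 5, at -1.01 to -1.27). Ehd2 measured 63.7, 69.1, 62.5, 126 and 165 CPM (-0.84 ± 0.23, edgeR adjusted p = 0.0225, or -0.97 ± 0.25 without replicate 6, and lost at -0.71 to -0.79 without 0 hr replicate 2 or 4 or 6 hr replicate 1, 2 or 3). Its replicates 4 and 6 lay among the controls and the other 3 below them. The remaining members gave no call. Cavin3 stood at 78.1 to 177 CPM (0.62 ± 0.22, edgeR adjusted p = 0.102, but 0.0476 without replicate 2 and 0.0196 without replicate 6), Ehd4 at 66.5 to 86.3 CPM (0.47 ± 0.25, adjusted p = 0.328), Pacsin2 at 42.5 to 59.8 CPM (0.02, 95% interval -0.31 to 0.35) and Plvap at 7.15 to 22.3 CPM (-0.72, interval -1.56 to 0.12). Without replicate 6 Cavin3 was at 0.78, Ehd4 at 0.70 (edgeR adjusted p = 0.0507), Pacsin2 at 0.12 and Plvap at -0.63.

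Thus 5 of 9 members passed in brain at 6 hr, all lower, where 6.44% of 19234 genes were called and 2.23% in this direction. In the edgeR fit of all 80 libraries of the 3 tissues 0 of 9 were called for this comparison, with 4 at an unadjusted p under 0.05. The counts that follow are again from brain libraries alone. Without replicate 6 there were 6 of 9, with the same 5 lower and Cavin3 higher, against 14.3% of all genes. Within the second library series, which holds 3 controls and 4 libraries at 6 hr, the fall of Cav1 was -2.84 ± 0.22 (edgeR adjusted p = 2.19e-05), of Cav2 -2.0 ± 0.19 (6.29e-05 for the same p), of Cavin1 -1.40 ± 0.24 (0.00239) and of Cavin2 -1.57 ± 0.25 (0.00155). Ehd2 was at -0.76 ± 0.25 there (adjusted p = 0.076). Scaling to the pan-endothelial list moved the members up by a median of 0.31 and ended all 5 calls without turning a direction (Cav1 -1.58, adjusted p = 0.0831, and Cavin1 -0.82, adjusted p = 0.142). The list itself summed to 1448 to 2425 CPM at 6 hr, and 7 of its 15 genes were called lower and 2 higher. Leukocyte markers summed to 10.3 to 72.2 CPM in brain controls and 13.9 to 398 CPM at 6 hr, with 0 of 8 called, and their part in the result was not tested.

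**Figure D2:**
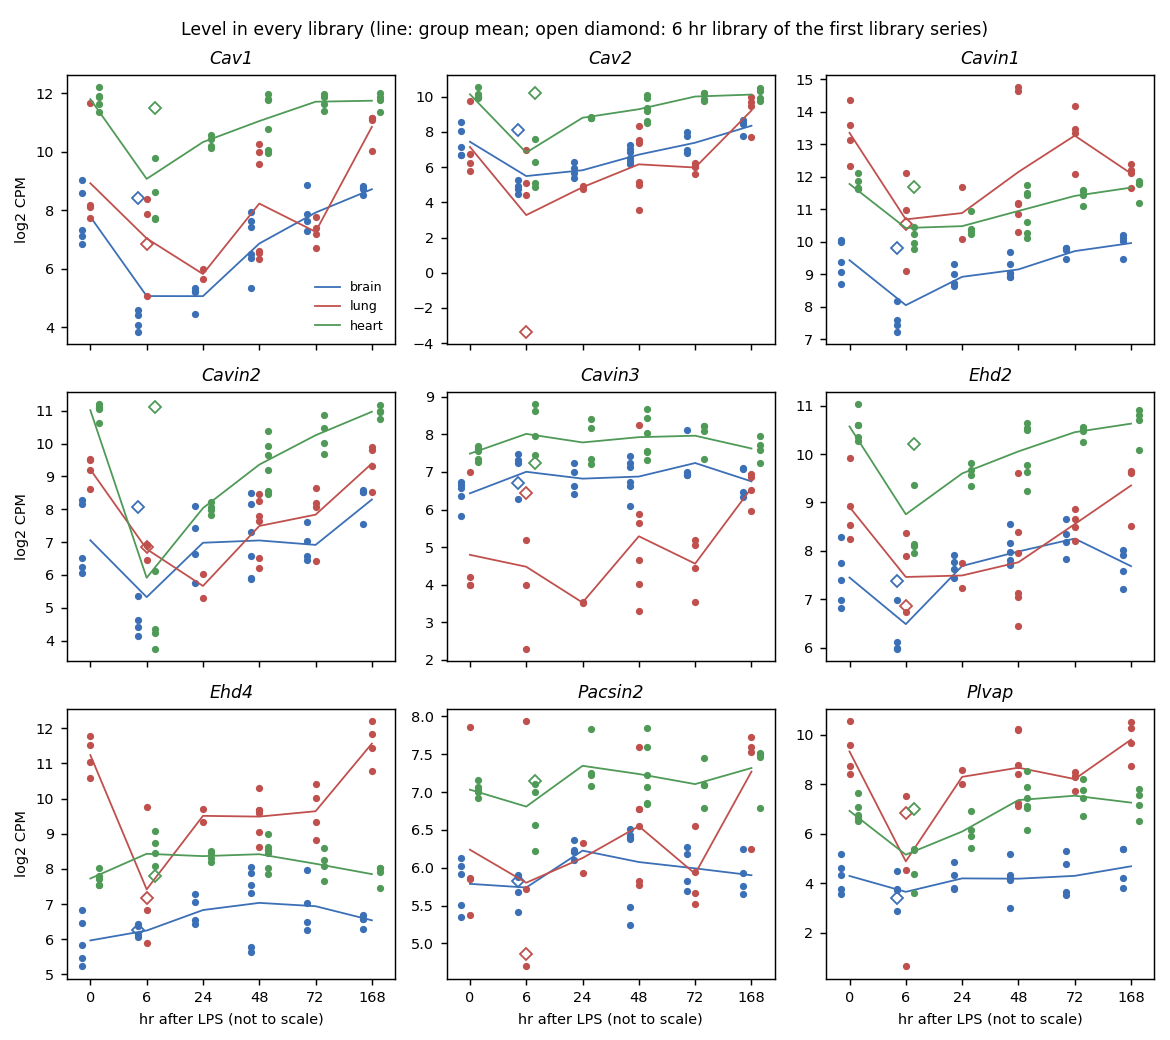
Level of each gene in every library (dots, log2 CPM) at 0 to 168 hr after LPS, with a line through the group means, for brain (blue), lung (red) and heart (green), and open diamonds for the 6 hr libraries of the first series. Cav1, Cav2, Cavin1, Cavin2 and Ehd2 dip at 6 hr in brain and heart in the filled points while the diamonds of these tissues stay near 0 hr, and the lung Cav2 diamond is a library with 0 counts.

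In brain the caveolins were still low at 24 hr, when other coat genes no longer passed the test. Cav1 measured 36.9, 37.2, 21.9 and 40.6 CPM and Cav2 42.3, 50.1, 60.8 and 78.9 CPM. In both genes all 4 libraries lay below the lowest control. Replicates 4 and 5 at 24 hr are of the fourth series, which has no controls, so that the fitted changes lean on its offset. The log2 fold changes were -2.49 ± 0.67 for Cav1 (edgeR adjusted p = 0.0188, lost at -2.10 without 24 hr replicate 1) and -1.86 ± 0.43 for Cav2 (adjusted p = 0.00768). Both were of this size without the 6 hr library of the first series (-2.58 and -1.89) and with pan-endothelial scaling (-2.52 for Cav1). Within the second series, which holds 1 library at 24 hr that is assumed to vary like the other groups, the fitted changes were -1.85 and -1.19. These 2 of 9 members stand against 11.2% of all genes called in brain at 24 hr, and 4.66% called lower. Of the pan-endothelial list 2 of 15 genes were called lower there and 0 higher (sum 2124 to 3511 CPM), and of the leukocyte markers 1 of 8 higher (64.2 to 138 CPM), and their part was not tested.

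By 24 hr Cavin1 had reached 399.6 to 642 CPM in brain (-0.72 ± 0.33, edgeR adjusted p = 0.157) and Cavin2 54.4 to 274 CPM (-0.89 ± 0.42, adjusted p = 0.167), which overlapped their controls. Ehd4 was the one member called at 48 hr (1 of 9, against 14.2% of all genes and 8.11% called higher): it measured 55.3, 49.7, 237, 186, 158 and 264 CPM, a log2 fold change of 0.80 ± 0.25 (edgeR adjusted p = 0.0318). The 2 libraries of the second series lay among the controls and the 4 others above them, within the second series the change was 0.23 (adjusted p = 0.501), pan-endothelial scaling gave 0.34 (adjusted p = 0.311), and the call was lost without 0 hr replicate 1, 3 or 5, 24 hr replicate 2 or 48 hr replicate 3 or 7 (0.65 to 0.79). Leukocyte markers went from 10.3 to 72.2 CPM at 0 hr to 68.5 to 315 CPM at 48 hr (6 of 8 called higher), and the pan-endothelial list from 1703 to 3692 CPM to 2459 to 4689.9 CPM (4 of 15 called higher), and their part in the Ehd4 result was not tested. At 72 hr edgeR called 0 of 9 members (3.53% of all genes), with 3 at an unadjusted p under 0.05 and 2 called by DESeq2, and at 168 hr 0 of 9 (0% of all genes), with none at an unadjusted p under 0.05 and none by DESeq2 or limma-voom. Cav1 was then at 364 to 450.1 CPM in all 4 libraries, and its interval against 0 hr ran from -0.48 to 2.12. The brain tests at 48, 72 and 168 hr lean on the offset of the fourth series, which has no controls.

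In heart ECs, Cavin2 almost vanished from 4 of 5 libraries at 6 hr. It measured 13.3, 18.8, 20.2 and 70.0 CPM in replicates 1 to 4 and 2219 CPM in replicate 5, against 2231, 2161, 2118, 2354 and 1573 CPM in controls. The 4 libraries lay far below every control and replicate 5, the library low in Saa3, within their range. With replicate 5 the log2 fold change was -2.73 ± 0.97 (edgeR adjusted p = 0.0277), without it -6.33 ± 0.47 (adjusted p = 1.74e-10), and within the second series -6.03 ± 0.54 (adjusted p = 3.99e-06). The call with replicate 5 was lost without 6 hr replicate 1, 2, 3 or 4 (-2.19 to -2.28).

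Both caveolins fell in heart ECs as well. Cav1 measured 208, 394, 213, 877 and 2911 CPM at 6 hr against 2607 to 4756 CPM at 0 hr, with replicates 1 to 4 below every control. Its log2 fold change was -2.04 ± 0.54 (edgeR adjusted p = 0.00503), or -3.31 ± 0.40 without replicate 5 (adjusted p = 1.95e-07). Cav2 measured 34.2, 79.1, 29.7, 192 and 1204 CPM against 984 to 1513 CPM (-2.10 ± 0.67, edgeR adjusted p = 0.0151, or -4.01 ± 0.42 without replicate 5, and no longer called, at -1.78, without replicate 2).

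Cavin1 and Ehd2 fell by less. Cavin1 measured 871, 998, 1218, 1407 and 3319 CPM at 6 hr (-1.17 ± 0.32, edgeR adjusted p = 0.00661, or -1.81 ± 0.26 without replicate 5). Ehd2 measured 246, 283, 275, 658 and 1192 CPM against 1228 to 2099 CPM (-1.55 ± 0.35, edgeR adjusted p = 0.00183, or -2.18 ± 0.30 without replicate 5). For Ehd2 all 5 libraries lay below the lowest control, for Cavin1 the first 4. Plvap measured 12.1, 41.8, 20.8 and 40.6 CPM in replicates 1 to 4, all below the controls of 91.6 to 200.1 CPM, and 129 CPM in replicate 5 (-1.50 ± 0.46, edgeR adjusted p = 0.0128, or -2.07 ± 0.45 without replicate 5).

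Ehd4 went the other way in heart. It measured 542, 352, 425, 271 and 221 CPM at 6 hr against 186 to 259 CPM at 0 hr, with replicates 1 to 4 above every control and replicate 5 among them. The rise was 0.78 ± 0.22 (edgeR adjusted p = 0.00708), or 0.97 ± 0.21 without replicate 5 (adjusted p = 0.000294). Cavin3 measured 174, 250.3, 393, 448 and 149.5 CPM against 153 to 206 CPM and was not called (0.57 ± 0.29, edgeR adjusted p = 0.111, but 0.76 with adjusted p = 0.0316 without replicate 5). Pacsin2 was at 74.8 to 142 CPM (-0.15 ± 0.17, 95% interval -0.47 to 0.18), at -0.21 without replicate 5, and at 0.71 with pan-endothelial scaling, where it was called.

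In the heart at 6 hr, 6 of 9 members were called lower and 1 higher, where 20.3% of 16024 genes were called lower and 22.4% higher (42.8% in all). Without replicate 5 the same 6 were called lower and Ehd4 and Cavin3 higher, 8 of 9 against 58.4% of all genes. The pan-endothelial list moved with these genes: 13 of its 15 genes were called lower and 1 higher, and its sum went from 12078 to 14377 CPM in controls to 4940 to 12945 CPM. Scaled to that list, which raised the members by a median of 0.70, the falls of Cav1 (-1.51), Cav2 (-1.69), Cavin2 (-2.51) and Ehd2 (-0.87) and the rise of Ehd4 (1.82) were still called, whereas Cavin1 (-0.47, edgeR adjusted p = 0.101) and Plvap (-0.77, adjusted p = 0.0668) were not. The share of reads on genes moved as well, from 60.5 to 65.7% in controls to 43.7 to 54.8% in 6 hr replicates 1 to 4 and 67.7% in replicate 5. With this share as a further covariate, a choice made after seeing the data, 0 of the 45 heart comparisons of members passed (Cav1 -1.02, edgeR adjusted p = 0.0758, and Cavin2 -1.92, adjusted p = 0.071). As the share is low in just the 6 hr libraries that are high in Saa3, its part and that of LPS cannot be told apart. Cardiomyocyte markers summed to 3913 to 7981 CPM in heart controls and 5332 to 10258 CPM at 6 hr (1 of 8 called higher, 0 lower), and leukocyte markers to 20.1 to 38.8 and 16.6 to 76.4 CPM (4 of 8 higher, 7 tested), and their part was not tested.

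**Figure D3:**
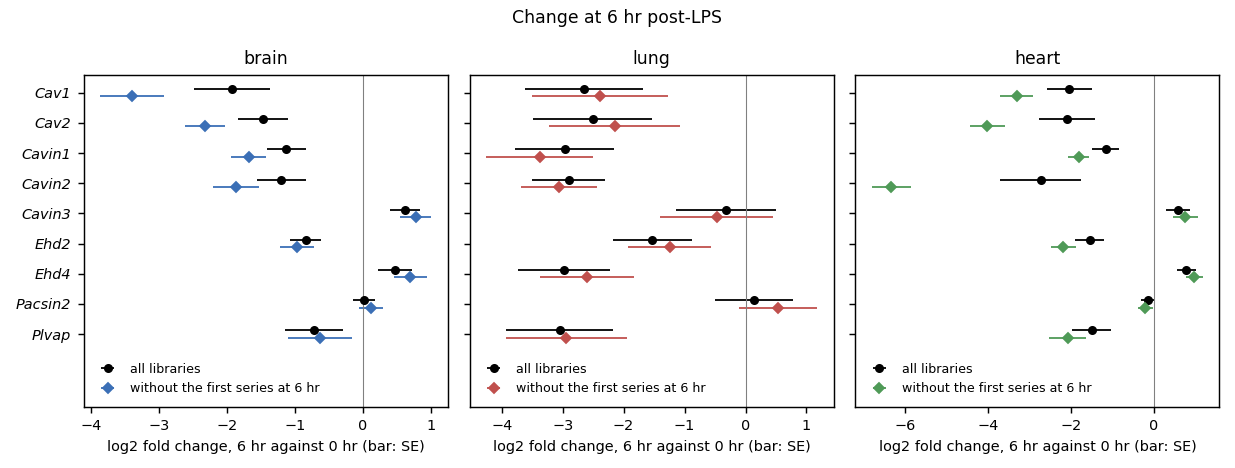
Log2 fold change from 0 to 6 hr (dot) with its SE (bar) for each gene in brain, lung and heart, over all libraries (black) and without the 6 hr libraries of the first series (colour). In brain and heart the caveolins and Cavin2 lie further from 0 without these libraries, and Ehd4 lies right of 0 in heart and left of 0 in lung.

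Recovery in heart could be followed in the libraries. Cavin2 stood at 254, 301, 270.2 and 228 CPM at 24 hr, between 352 and 1339 CPM at 48 hr (median 695), between 814 and 1858 CPM at 72 hr and between 1716 and 2299.7 CPM at 168 hr. The 24 hr libraries lay below all controls and the 168 hr libraries within their range of 1573 to 2354 CPM. These levels carry no correction for series, whereas the tests lean on the offset of the fourth series, which has no controls. The test at 24 hr gave -2.87 ± 1.05 (edgeR adjusted p = 0.0605) with the 6 hr replicate 5 in the fit, and -2.75 ± 0.41 without it (adjusted p = 4.36e-05). Cavin2 was also called without 6 hr replicate 1, 2 or 3 or 48 hr replicate 2 (-2.83 to -2.98). Cavin1 was the one member called at 24 hr in heart over all libraries (1 of 9, against 16.2% of all genes and 7.11% called lower), at 1215 to 1957 CPM and -1.09 ± 0.37 (edgeR adjusted p = 0.0454). Its call was lost without any 1 of 18 of the 28 heart libraries, among them all 5 controls and all 4 libraries at 24 hr, besides 6 hr replicate 4, 48 hr replicate 7, 72 hr replicates 2, 3 and 5 and all 4 at 168 hr (-0.93 to -1.23). At 24 hr the pan-endothelial list summed to 9656 to 12398 CPM in heart (1 of 15 genes called lower), cardiomyocyte markers to 3089 to 4790.5 CPM (2 of 8 lower), smooth muscle and pericyte markers to 105 to 129.6 CPM against 134 to 255 CPM at 0 hr (3 of 10 lower, 1 higher) and leukocyte markers to 18.1 to 42.2 CPM (4 of 8 higher, 7 tested), and their part was not tested.

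Without 6 hr replicate 5 the members called lower in heart at 24 hr were Cav1 (-1.17 ± 0.38), Cav2 (-1.22 ± 0.39), Cavin1 (-1.06 ± 0.26), Cavin2 and Ehd2 (-0.90 ± 0.30), 5 of 9 against 26.0% of all genes. Cav1 measured 1364, 1521, 1168 and 1119 CPM in these libraries and Cav2 448, 454, 449 and 437 CPM, all below every control. At 48 hr edgeR called 0 of 9 members (4.19% of all genes), with 2 at an unadjusted p under 0.05 and none by DESeq2 or limma-voom, and Cavin2 alone was called without 6 hr replicate 5 (-1.42 ± 0.32, adjusted p = 0.00673). Cav1 was split at 48 hr, with 3558, 3975 and 3439 CPM in replicates 1, 2 and 4 and 1061, 986 and 1740.2 CPM in replicates 3, 6 and 7, and replicates 3, 6 and 7 were also the low ones in lung (80.8 to 97.3 CPM against 769 to 1233 CPM) and in brain (39.9 to 90.4 CPM against 171 to 243 CPM). At 72 hr edgeR called 0 of 9 (0.275% of all genes, 1 member at an unadjusted p under 0.05, none by DESeq2 or limma-voom), and at 168 hr 0 of 9 (0% of all genes, none by any of the 3 tools). The 95% interval of Cavin2 at 168 hr ran from -2.17 to 1.91. The heart tests at 24, 48, 72 and 168 hr lean on the offset of the fourth series.

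In the lung, Cavin1, Cavin2, Ehd4 and Plvap fell at 6 hr, in libraries of poor depth. Ehd4 measured 114, 59.7, 866 and 144 CPM at 6 hr against 1532, 2114, 2959.6 and 3517 CPM at 0 hr. All 4 libraries lay below every control, and the deepest, replicate 3 with 40128330 counts on genes, held 27547 reads of Ehd4, whereas replicate 4 held 5. The log2 fold change was -2.98 ± 0.76 (edgeR adjusted p = 0.0217). It was -4.90 without replicate 3 (adjusted p = 7.67e-06), and the call was lost without 0 hr replicate 3 or 6 hr replicate 1, 2 or 4 (-2.60 to -2.76).

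Plvap measured 22.7, 1.46, 183 and 116 CPM at 6 hr, the second value from 1 read and the last from 4, against 341 to 1493 CPM at 0 hr. Again no 6 hr library reached a control. The fall was -3.05 ± 0.88 (edgeR adjusted p = 0.039), -5.11 without 6 hr replicate 3, and no longer called without 0 hr replicate 2, 3 or 4 or 6 hr replicate 1, 2 or 4 (-2.67 to -3.18). Cavin1 measured 553, 2019, 4464 and 1502 CPM against 5181 to 21286 CPM (-2.97 ± 0.81, edgeR adjusted p = 0.0295, lost without 0 hr replicate 1, 2 or 3 or 6 hr replicate 1 or 2 at -2.59 to -3.19). Cavin2 measured 88.4, 121, 120.0 and 116 CPM against 393 to 734 CPM (-2.91 ± 0.61, edgeR adjusted p = 0.00584), and this call was held without each library in turn (-2.69 to -3.06). In both genes the groups did not overlap. Without 6 hr replicate 4 the calls of Cavin1 (-3.38 ± 0.88, edgeR adjusted p = 0.0288) and Cavin2 (-3.06 ± 0.63, adjusted p = 0.00609) stood, and Ehd4 (adjusted p = 0.0521) and Plvap (adjusted p = 0.0883) did not pass.

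The caveolins were not called in lung at 6 hr. Cav1 measured 232, 330.4, 33.2 and 116 CPM there (-2.65 ± 0.97, edgeR adjusted p = 0.103). Of these libraries 2 lay among the controls other than replicate 4 (210.3 to 289 CPM) or above them and 2 below. Control replicate 4, which had the highest share of reads on genes of the lung controls, stood at 3243 CPM. Cav2 measured 123, 33.5, 21.6 and 0 CPM, the last a library in which 3 reads would have been 86.7 CPM (-2.51 ± 0.98, adjusted p = 0.125). Without lung 0 hr replicate 4 the fitted changes were -1.0 for Cav1 and -1.07 for Cav2. Ehd2 (-1.53, adjusted p = 0.158), Cavin3 (-0.32) and Pacsin2 (0.14) gave no call either. Without 6 hr replicate 4 these 5 genes were at -2.39 for Cav1, -2.15 for Cav2, -1.25 for Ehd2, -0.48 for Cavin3 and 0.53 for Pacsin2, again with no call. In the fit over all libraries under pan-endothelial scaling Cav2 (0.37), Cavin3 (1.61) and Ehd2 (0.41) would lie above 0, Cav1 (-0.05) near it, and Pacsin2 (2.18) was called higher.

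So 4 of 9 members were called in lung at 6 hr, all lower, where 4.83% of 17058 genes were called and 2.27% in this direction. Without 6 hr replicate 4 there were 2 of 9, against 3.95%. Scaling to the pan-endothelial list moved the members up by a median of 1.96 and ended all 4 calls (Cavin2 -0.70, edgeR adjusted p = 0.387, and Ehd4 -1.44, adjusted p = 0.0712). The list itself summed to 9741 to 17025 CPM in lung controls and 1598 to 7221 CPM at 6 hr, with 4 of 15 genes called lower. Within the second series 0 of 15600 genes and 0 of 9 members passed, with Cavin2 at -2.93 (edgeR adjusted p = 0.232) and Ehd4 at -3.02 (adjusted p = 0.508). Leukocyte markers ran from 288 to 594 CPM in controls and from 0 to 6920 CPM at 6 hr (3 of 8 called higher), type II alveolar markers from 2008 to 8626 and 231 to 13309 CPM (0 of 5, with 4 tested and Sftpb at 0 in every 6 hr library), and cardiomyocyte markers from 74.6 to 159 and 133 to 2683 CPM (3 of 8 higher). Markers of type I alveolar cells, which form caveolae themselves, went from 1071 to 1630.5 CPM in controls to 28.9 to 1160.4 CPM (0 of 6 called, with 5 tested and Pdpn at 0 in every lung library). The part of these cells in the result was not tested.

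**Figure D4:**
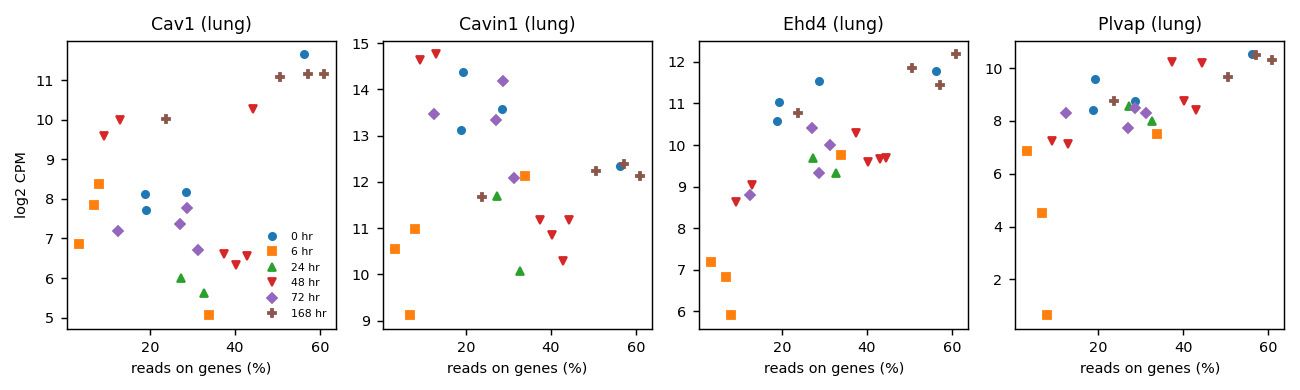
Level of Cav1, Cavin1, Ehd4 and Plvap in each of the 24 lung libraries (log2 CPM) against the percentage of its reads that fell on genes, with a symbol for each time after LPS. Ehd4 and Plvap rise with this percentage over all libraries, Cavin1 does not, and 3 of the 4 libraries at 6 hr lie below 10% on this axis.

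Across all 24 lung libraries the level of Ehd4 ran with the percentage of reads on genes (Pearson r = 0.75) and so did that of Plvap (0.70), as a description over libraries that share times and series. At 24, 48, 72 and 168 hr edgeR called 0 of 9 members in lung (0.375, 0.598, 0.193 and 0.0117% of all genes). At an unadjusted p under 0.05 there were 4, 2, 3 and 0 members, DESeq2 called 1, 1, 0 and 0, and limma-voom 1, 0, 0 and 0. These tests too lean on the offset of the fourth series, which has no controls. Cavin2 at 24 hr, with 64.7 and 39.6 CPM in 2 libraries, was at -3.10 ± 0.79 (edgeR adjusted p = 0.0993, and 0.0396 without 6 hr replicate 3). Ehd4 at 48 hr, with 393 to 1257 CPM, was at -2.02 ± 0.67 (adjusted p = 0.196, and 0.0143 at -2.09 without the same library). At 168 hr Ehd4 measured 1747, 2773, 3673 and 4685 CPM and Plvap 429, 1450.4, 816 and 1253 CPM, within or above their controls. Cav1 was then at 1028 CPM in replicate 1 and at 2166 to 2279 CPM in the others. These values lay between control replicate 4 (3243 CPM) and the other lung controls (210.3 to 289 CPM). The share of reads on genes was 23.8% in 168 hr replicate 1, 50.5 to 61.0% in the others and 56.2% in control replicate 4.

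**Figure D5:**
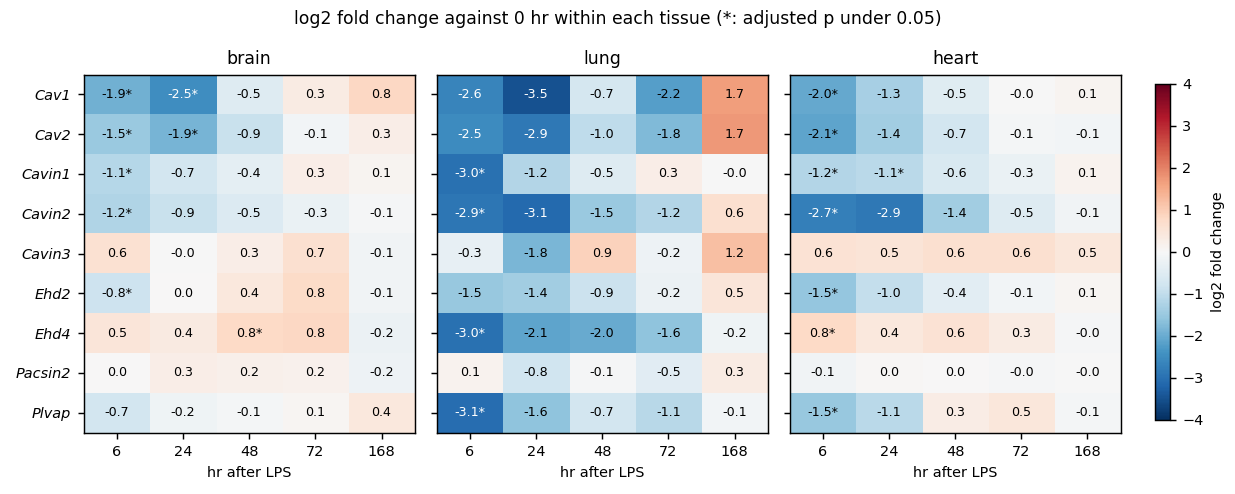
Log2 fold change of each gene against 0 hr at 5 times after LPS within brain, lung and heart, from the fits over all libraries, with an asterisk where the edgeR adjusted p was under 0.05. The calls sit at 6 and 24 hr apart from Ehd4 in brain at 48 hr, and with pan-endothelial scaling the brain and lung calls at 6 hr were lost and Pacsin2 in heart at 6 hr turned positive.

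Whether the response itself differed between tissues was tested in a fit of all 80 libraries. The 10 tissue-by-time terms together were past the threshold for Ehd4 (F = 9.88, edgeR adjusted p = 4.1e-07) and Cavin3 (F = 2.96, adjusted p = 0.0177), 2 of 9 against 32.5% of 22007 genes. Without the 6 hr libraries of the first series 6 of 9 passed (Cav1, Cav2, Cavin2, Cavin3, Ehd2 and Ehd4), against 37.8%. Libraries of different tissues came from the same mice as far as file names show, and with mice as a block, a choice made after seeing the data, 7 of 9 passed (all but Cavin1 and Pacsin2), where 6694 of the 22007 genes did. Ehd4 was the gene with opposite changes: its log2 change at 6 hr in lung lay below that in heart by -3.73 ± 0.56 (edgeR adjusted p = 7.53e-06), and that in brain above that in lung by 3.19 ± 0.56 (adjusted p = 0.000124). Both differences were also called with pan-endothelial scaling (-3.42 and 2.19), within the second series (-3.69 and 3.58), without the 6 hr libraries of the first series (-3.63 and 3.12) and with mice as a block (-3.96 and 3.46).

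At 24 hr the Ehd4 change in lung was again below that in heart (-2.46 ± 0.66, edgeR adjusted p = 0.0329) and brain (brain minus lung 2.65 ± 0.67, adjusted p = 0.00975), but neither passed with pan-endothelial scaling (-2.0 and 1.73, adjusted p = 0.0714 and 0.075) or with mice as a block (-2.12 and 2.31, adjusted p = 0.125 and 0.0577). Plvap differed between brain and lung at 6 hr (2.52 ± 0.84, edgeR adjusted p = 0.0359), and not with pan-endothelial scaling (1.37, adjusted p = 0.218) or within the second series (2.36, adjusted p = 0.193). These were 2 of 9 members for brain against lung at 6 hr (13.3% of all genes), 1 for lung against heart (18.1%), and at 24 hr 1 (3.85%) and 1 (1.67%). Between brain and heart edgeR called 0 of 9 at 6 hr (0.636% of all genes; no member at an unadjusted p under 0.05, 1 by limma-voom, 0 by DESeq2) and 0 of 9 at 24 hr (0.327%; 2 members at an unadjusted p under 0.05 and none by the other tools). Without the 6 hr libraries of the first series the 6 hr fall of Cavin2 was called deeper in heart than in brain (difference 3.50) and than in lung (3.57), against 6.36 and 19.7% of all genes. With mice as a block it was called so over all libraries (3.09, edgeR adjusted p = 0.027, and 2.82, adjusted p = 0.0279), and the heart falls of Cav1 and Cav2 were called deeper than those in lung (2.23, adjusted p = 0.0472, and 2.67, adjusted p = 0.0231).

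The order of the tissues at later times kept its main lines. Of 54 combinations of a gene and a time, the mean level was highest 37 times in heart, 17 times in lung and 0 times in brain, but 20, 17 and 17 times relative to the pan-endothelial list. Cavin1 was highest in lung at all 6 times. By mean log2 CPM, Ehd4 and Plvap were highest in lung at every time but 6 hr, when heart led. Cavin2 was highest in heart at every time but 6 hr, when lung led. For none of these genes was lung against heart called at 6 hr, and their libraries overlapped. Relative to the pan-endothelial list lung led for Plvap and Cavin2 at 6 hr and heart for Ehd4. Brain was called below heart for 8, 7, 9, 8 and 8 of 9 members at 6, 24, 48, 72 and 168 hr, where 51.6, 35.3, 43.1, 35.1 and 34.7% of all genes differed and 18.6, 10.3, 13.2, 11.0 and 10.9% were lower. Brain differed from lung for 6, 4, 4, 4 and 6 members (55.6, 42.1, 55.6, 59.3 and 43.2% of all genes), and lung from heart for 4, 7, 8, 8 and 3 (47.6, 42.1, 52.5, 54.7 and 32.1%). Under pan-endothelial scaling 45 of these 135 comparisons had the other sign. Of these, 33 were called in either fit, and 32 of those 33 had brain on one side. With mice as a block 5 had the other sign, none of which was called in either fit. In brain Plvap stayed between 7.15 and 41.3 CPM over its 28 libraries.

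Among 23 related genes of caveolae and vesicle traffic, of which 21 to 22 could be tested in a fit, edgeR called 1 of 21 in brain at 6 hr (6.44% of all genes), 2 of 21 at 24 hr (11.2%), 0 of 22 in lung at 6 and at 24 hr (4.83 and 0.375%), and 8 of 22 in heart at 6 hr (42.8%) and 3 of 22 at 24 hr (16.2%). Mfsd2a, the lipid transporter that keeps caveolar transcytosis low at the blood-brain barrier, measured 93.3 to 146 CPM in brain controls. It measured 36.1 to 56.0 CPM at 6 hr in replicates 1 to 4 and 87.1 CPM in replicate 6, 19.4 to 44.6 CPM at 24 hr and 93.1 to 153 CPM at 168 hr. The 24 hr libraries lay below all controls, as those of Cav1 did. Its log2 fold change was -1.14 ± 0.30 at 6 hr (edgeR adjusted p = 0.0178) and -1.79 ± 0.35 at 24 hr (adjusted p = 0.00217), or -1.69 and -1.80 without replicate 6. With pan-endothelial scaling it was -0.83 at 6 hr (adjusted p = 0.13) and -1.78 at 24 hr (adjusted p = 0.00356). At 0 hr brain exceeded lung by 5.42, and heart held 1 or 2 reads of it in each library.

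Mfsd2a was the gene of this list called in brain at 6 hr, and Ror1, a receptor that helps assemble caveolae, rose at 24 hr (1.21 ± 0.33, edgeR adjusted p = 0.0214). In lung 2 of the 22 had an unadjusted p under 0.05 at 6 hr and 0 at 24 hr, DESeq2 called 1 and 0, and limma-voom 0 and 0. In heart at 6 hr 4 rose and 4 fell: the rises included Src, a kinase of Cav1 (1.15 ± 0.30, edgeR adjusted p = 0.00505), and Cav3, the muscle caveolin (1.48 ± 0.55, adjusted p = 0.0344), and the falls Dnm1 (-1.41) and Dnm3 (-1.57), dynamins that cut vesicles from the membrane. Without replicate 5 these were at 1.35, 1.87, -1.91 and -2.46. Mfsd2a rose there as well (edgeR adjusted p = 0.000178), from 0.0325 to 0.163 CPM to 1.27 to 4.19 CPM in 6 hr replicates 1 to 4, with 0 reads in replicate 5. With pan-endothelial scaling Src (2.18) and Cav3 (2.63) were still called and Dnm1 (-0.73) and Dnm3 (-0.87) were not. At baseline 8 of these genes were higher and 7 lower in brain than in lung (15 of 22, against 64.3% of all genes), 9 and 9 in brain against heart (18 of 22, 54.8%) and 8 and 8 in lung against heart (16 of 22, 61.1%). The muscle genes Cav3 and Cavin4 were below heart by -6.11 and -4.19 in brain, and Nos3, the endothelial nitric oxide synthase held by Cav1, by -1.71 in brain and -1.79 in lung. These baseline values are on the scale of all genes. They were not refitted with pan-endothelial scaling, which raised the members in brain against heart by a median of 2.54, more than the Nos3 difference.

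Over the 18 tissue-by-time means, the genes whose log2 CPM ran most like that of Cav1, out of 8967 genes, were Dock1 (Pearson r = 0.945), Kdr (0.942), Kitl (0.938), Gng11 (0.932) and Aplnr (0.930). Ehd2 came 9th of all genes for Cav1 (0.919), Cav2 came 44th (0.878) and Cavin2 52nd (0.863). For Cavin1 they were Rassf3 (0.969), Rgl2 (0.956), Hdac7 (0.956), Bnip2 (0.946) and Crip1 (0.940), with Plvap as the 30th (0.893). For Plvap they were Efnb1 (0.953), Ankrd44 (0.953), Epas1 (0.951), Cracr2b (0.945) and Hdac7 (0.944), with Ehd4 as the 19th (0.916). These values describe group means that share libraries and the difference between tissues.

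Within groups, after the means of group and library series had been removed, some members moved together from library to library. Cav1 and Cav2 had r = 0.934 in brain (28 libraries), 0.967 in heart (28) and 0.608 in lung (24). Cav1 ran with Cavin1 in brain (0.855) and heart (0.876), and in heart with Cavin2 (0.924) and Ehd2 (0.922) but against Ehd4 (-0.653). Over all 36 pairs of members the median r was 0.05 in brain, 0.32 in heart and 0.25 in lung, so that these pairs were not typical of the list. In heart Cav1 also ran with the summed pan-endothelial list (0.939) and with the share of reads on genes (0.869), which these pairs share, and the 6 hr replicate 5 is among the libraries. The brain and lung values likewise include brain 6 hr replicate 6 and lung 0 hr replicate 4, which stood apart in Cav1.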

How the data were processed

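RiboTag EC RNA from brain, lung and heart was sequenced by the authors, aligned to mm10 with STAR 2.4.2 and counted per gene with HTSeq 0.6.1 (strand setting and annotation not given in the sources used here). The deposited values are raw read counts per gene and run. Here runs of 1 library were summed, giving 98 libraries, and 5 non-gene rows per file served only to find the share of reads on genes. Libraries under 3% were left out (18), which leaves 80. edgeR 4.0.16 (filterByExpr, TMM, quasi-likelihood F test, R 4.3.3) was fitted within each tissue, at 0 hr across tissues, and over all 80 libraries for the response terms. The library series, read from file names, was a covariate, and the fourth series holds no 0 hr library. Adjusted p-values (Benjamini-Hochberg) cover all genes tested, the threshold is 0.05, and SE is the log2 fold change over the root of F. Intervals are 1.96 SE, which is 95.0% under a normal approximation. The F tests have few degrees of freedom, so that these intervals are somewhat too narrow. DESeq2 1.42.0 and limma-voom 3.58.1, the latter the study's choice of test, were alternatives. The study's batch-corrected values were not used. The fits without the 6 hr libraries of the first series or without lung 0 hr replicate 4, with the share of reads on genes as a covariate, with a series effect per tissue, or with mice as a block over all 80 libraries were chosen after seeing the data. CPM used TMM library sizes. Lengths and positions come from GENCODE M21 (GRCm38).

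The 9 genes and all lists were chosen with earlier results of these data known. Named besides them were genes of the related list past the threshold with a log2 fold change of at least 1 at 0 hr or at 6 or 24 hr, and the 5 genes most like Cav1, Cavin1 and Plvap. The labels do not tie libraries of different tissues to 1 mouse, but file names do. Same-mouse libraries deviated together at 24, 48 and 168 hr in all pairs of tissues (correlations of deviations from the group means over 0.1 in every pair). Those of brain and heart did so at 6 hr as well (0.26 to 0.60). Tests between tissues do not model this pairing except where mice are named as a block, and p-values measure the spread between libraries. On counts simulated with a dispersion of 0.1, the fits recovered 90 of 90 genes changed 4-fold in brain at 6 hr, 89 of 105 in lung and 108 of 108 in heart, and 45 of 110, 12 of 95 and 40 of 92 changed 2-fold. The simulation gave every gene the same dispersion, with no series effect and no libraries that stood apart. These rates therefore do not give the power for the members here.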

Additional observations from a re-analysis of the deposited data

Results flagged for a closer look

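In the groups of 4 to 6 libraries, 15 of 153 sets of values held 1 library far from the rest by Dixon's criterion, which chance gives in about 1 in 20. At 6 hr these were brain replicate 6 for Cav1 (343 CPM) and Cav2 (277 CPM), the library low in Saa3, and lung replicate 1 for Cavin2 (88.4 CPM). At 0 hr they were lung replicate 4 for Cav1 (3243 CPM) and Cavin3 (129 CPM) and heart replicate 5 for Cavin2 (1573 CPM). At 24 and 72 hr they were brain replicate 4 for Cav1 (21.9 CPM), brain replicate 5 for Cavin3 (278 CPM) and heart replicate 1 for Cavin3 (162 CPM). At 168 hr replicate 1 lay below the others in lung for Cav1 (1028 CPM), Ehd2 (364 CPM) and Pacsin2 (75.8 CPM), in heart for Cavin1 (2359.6 CPM) and Pacsin2 (110.4 CPM) and in brain for Cavin2 (186 CPM).

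The response to LPS differed between tissues by the joint test for Ehd4 (F = 9.88) and Cavin3 (F = 2.96). Among single differences of log2 changes, Ehd4 was called at 6 hr for brain minus lung (3.19) and lung minus heart (-3.73) and at 24 hr for the same pairs (2.65 and -2.46), and Plvap at 6 hr for brain minus lung (2.52).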

How the results depend on the processing

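RLE scaling changed no call, and the third series holds none of the libraries used. Scaling to the pan-endothelial list turned the baseline direction of brain minus lung for Cav1 (0.90), Cav2 (2.31), Cavin2 (0.33), Ehd2 (0.94) and Pacsin2 (1.88), of brain minus heart for Cavin1 (0.13), Cavin3 (1.42), Ehd4 (0.69) and Pacsin2 (1.21), and of Pacsin2 in heart at 6 hr (0.71). Counting newly called genes, it gave 4 of 45 brain calls (8 with scaling over all genes), 1 lung call (4) and 3 of 54 differences of response (5), and made brain the highest tissue in 17 of 54 combinations (0) and heart in 20 (37). With the share of reads on genes as covariate 0 of 45 heart comparisons were called (8), and Cavin3 brain minus lung became -0.51. The cause was not tested. Within the first series calls fell to 8 of 27 at baseline (24). It gave 0 in brain, lung, heart, the pairs and the joint test, which says nothing about stability, since it holds 1 library per tissue at 6 hr, those of brain and heart low in Saa3, and 1 at 24 hr, and heart at 6 hr read 0.036 for Cav1, 0.24 for Cav2, 0.043 for Cavin2 and 0.47 for Plvap. Within the second series 0 of 27 lung comparisons, 6 of 36 pairs and 4 of 9 joint tests (2) passed. Without the 6 hr libraries of the first series heart had 14 calls, lung 2, the pairs 9 and the joint test 6. No filter gave heart 14, the pairs 14 and the joint test 7. No series covariate gave brain 2, and the fit over all tissues gave brain 1, lung 11 and heart 5. At 6 hr the fit over all tissues called 0 of 9 members in brain, 5 in lung and 4 in heart. Keeping every library gave lung 0 and the pairs 2, at least 1000000 counts gave lung 2, a series effect of its own per tissue gave the pairs 2, and limma-voom gave the joint test 5.

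Leaving out 1 library gave 21 to 25 calls at baseline, 3 to 11 in brain, 1 to 6 in lung, 6 to 14 in heart and 2 to 5 in the joint test, and Cav2 brain minus lung ran from -0.58 to 1.06, the latter without lung 0 hr replicate 4. Replicate numbers did not pair libraries across times within a tissue (median correlations 0.024, 0.027 and 0.0039 in brain, lung and heart) or across tissues at 0 hr (-0.23 to 0.15), but tissues of 1 number deviated together at 48 hr (0.21 to 0.65) and 168 hr (0.12 to 0.52), and brain with heart at 6 hr (0.26 to 0.44) and 24 hr (0.18 to 0.58). With the replicate number as a block the calls were 24 at baseline, 7 in brain, 3 in lung, 7 in heart, 5 of the pairs and 5 in the joint test. With mice read from file names as a block, Cav2 brain minus lung was 1.19, the pairs had 7 calls and the joint test 7. Tests between tissues without this block treat libraries of 1 mouse as independent. Lung depth limits what can be said of lung at 6 hr, where 1 library held 284457 counts.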
